A study of Homo sapiens with 36 samples.

Results

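The proteasome genes described here are the 50 GENCODE 44 protein-coding genes whose symbol begins with PSMA, PSMB, PSMC, PSMD, PSME, PSMF or PSMG followed by a digit, out of 20046 protein-coding genes in that annotation. The rule uses gene symbols and no measured value. The measurements are positions of PAR-CLIP clusters, that is, stretches of RNA where crosslinked reads carry the T-to-C changes left by 4-thiouridine (4SU). A cluster was assigned to a gene when its midpoint lay in the gene body on the same strand.

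The proteasome is the protease that degrades ubiquitin-tagged proteins in the nucleus and the cytoplasm of all human cells. Its core is a barrel of alpha rings (PSMA genes) around beta rings (PSMB genes), which hold the catalytic sites. A regulatory particle of ATPases that unfold the substrate (PSMC genes) and of non-ATPase subunits that bind, deubiquitylate and position it (PSMD genes) caps the barrel. PSME genes encode alternative caps, PSMF1 an inhibitor, and PSMG genes the chaperones that assemble the core. The symbol rule also took in PSMC3IP, a factor of meiotic recombination named for binding PSMC3, and PSME3IP1, a partner of PSME3; neither is a proteasome subunit.

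SCAF4 and SCAF8 are RNA-binding proteins that interact with the C-terminal domain of RNA polymerase II and were studied for their effect on early polyadenylation. Cell lines of 3 kinds were compared, all derived from HEK293 Flp-In T-REx, a human embryonic kidney line with a site for inducible transgenes: a line with inducible FLAG-SCAF4, a line with inducible FLAG-SCAF8, and the parental cells, which carry no tagged protein and are called control. All were labelled wild type for CRISPR status. The labels give 100 ng/mL doxycycline overnight for the SCAF4 and SCAF8 lines and state none for the parental line, whereas the methods of the study give a higher dose and name no exception. The tagged proteins were expressed from a transgene. All cells received 100 uM 4SU overnight and a pulse of 500 uM 4SU for 2 h, and were irradiated at 365 nm with 2000 J/m2. For each line there were 3 replicates of a FLAG immunoprecipitation (IP) and 3 of its input, the RNA of the extract before the IP, which gave 18 cluster lists. Each list combines the reads of a soluble and a chromatin sample, so the 2 fractions cannot be told apart here. The study calls the replicates biological, and the sources used here do not say whether they were separate cultures grown at different times.

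The lists differed widely in length, from 18287 to 54404 clusters in the SCAF4 and SCAF8 IPs, 1621 to 9638 in the control IPs and 4567 to 12493 in the 9 inputs. Counts were therefore divided by the length of the list and given per 10000 clusters. A single cluster weighs 0.184 per 10000 in the longest list and 6.17 per 10000 in the shortest, so a gene at 0 in a control IP was below a limit that is higher than most values in the SCAF4 and SCAF8 IPs. The lists hold positions and no read counts. They cannot show how strongly a gene was expressed, so the identity of the cells could not be checked against marker genes here, and a higher level of a gene and more binding per molecule cannot be told apart.

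Of the 50 genes, 41 held at least 1 cluster in any of the 18 lists, and each of these 41 held one in the SCAF4 or SCAF8 IPs. The 9 genes without a cluster were PSMA8, PSMB6, PSMB8, PSMB9, PSMB10, PSMB11, PSMD5, PSME1 and PSME2. Among them are the 4 inducible or tissue-specific beta subunits (PSMB8, PSMB9 and PSMB10 of the immunoproteasome and PSMB11 of the thymoproteasome) and the activator pair PSME1 and PSME2, which interferon induces together with the immunoproteasome. PSMA8 is an alpha subunit of the testis, PSMB6 a catalytic subunit of the standard core and PSMD5 a chaperone of the regulatory particle. The 4 inducible or tissue-specific beta genes have a median length of 3161 nt, and the part of length or expression in their absence was not tested.

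Among the 18 lists, 965 clusters fell in proteasome genes. The SCAF4 IPs held 65, 230 and 139 of them in replicates 1 to 3, and the SCAF8 IPs 70, 68 and 141. The control IPs held 25, 5 and 3. In the inputs the numbers were 48, 13 and 13 for the SCAF4 line, 23, 43 and 31 for the SCAF8 line, and 24, 11 and 13 for the parental line. The order of these numbers largely follows the lengths of the lists. Relative to list length, proteasome genes took 36.1 ± 5.29 clusters per 10000 (mean ± SD, n = 6) in the SCAF4 and SCAF8 IPs and 32.4 ± 7.61 (n = 6) in the inputs of the same lines. The IPs ranged from 27.8 to 42.3 and the inputs from 25.1 to 41.5, so that the groups overlapped over most of their range. The difference of 3.63 per 10000 was smaller than the SD of either group. It was 6.48 without replicate 1, 2.32 without replicate 2, 2.11 without replicate 3, 2.32 without PSMC3IP and PSME3IP1, and 9.42 with the better-scored clusters of each list (at least the median score). The SCAF4 IPs gave 34.2, 42.3 and 40.9 and the SCAF8 IPs 27.8, 37.2 and 34.0. The control IPs, at 25.9, 21.6 and 18.5, were below all 6, on 25, 5 and 3 clusters.

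**Figure D1:**
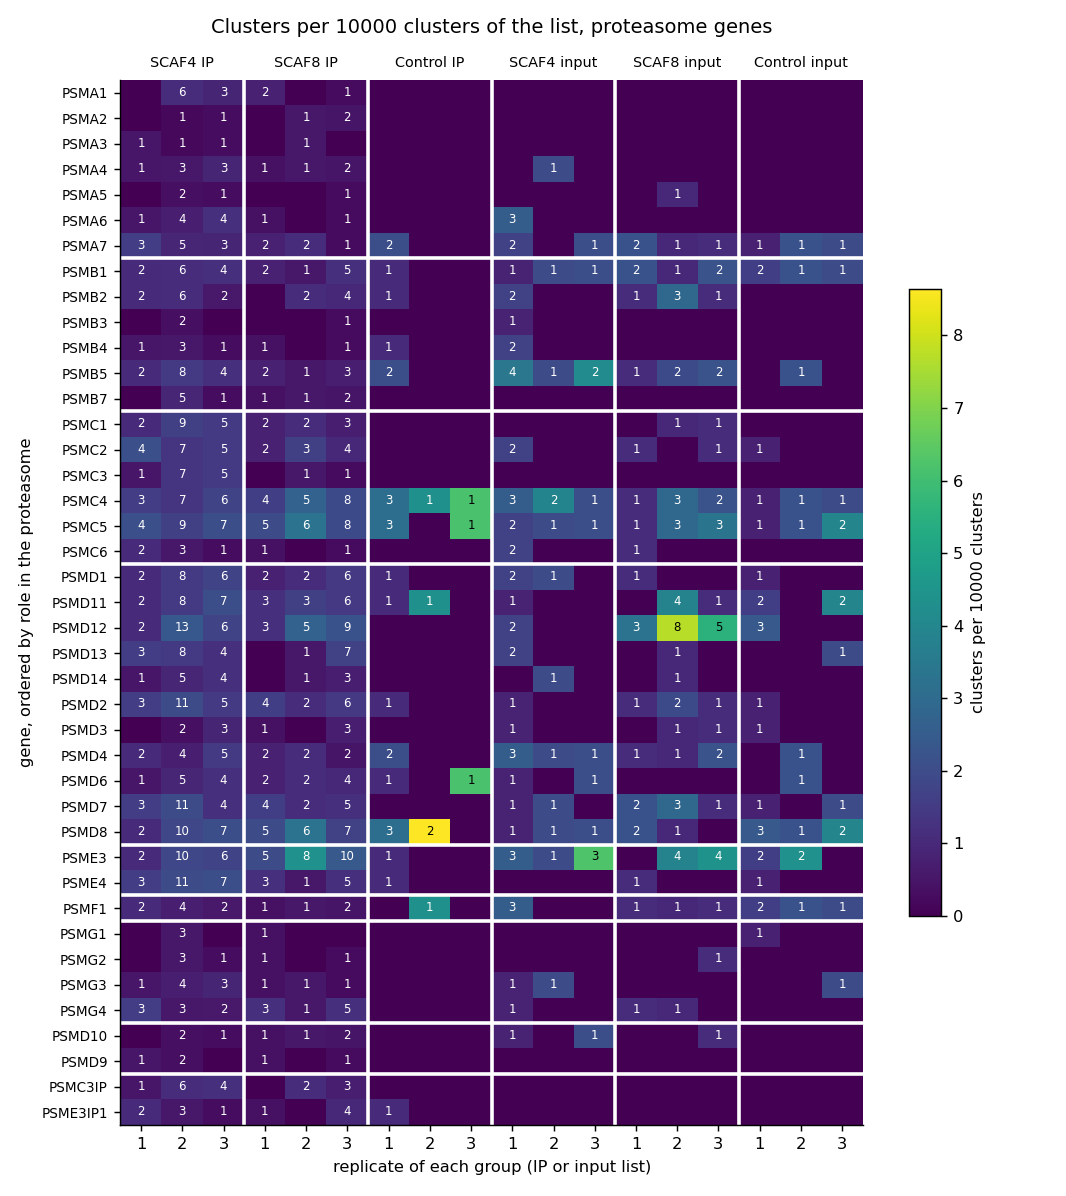
Clusters of the 41 proteasome genes with a cluster in any list (rows, ordered by role, white lines between roles) in the 18 lists (columns, replicates 1 to 3 of each group). Colour gives clusters per 10000 clusters of the list and the digit in a cell the number of clusters, with empty cells at 0; bright cells in the control IPs and inputs rest on few clusters, such as the 2 clusters of PSMD8 in replicate 2 of the control IP, at 8.64 per 10000.

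By role, all 6 ATPase genes and all 11 non-ATPase genes of the regulatory particle held clusters in the SCAF4 and SCAF8 IPs, 143 and 271 in total. Of the core, 7 of 8 alpha genes held 63 clusters and 6 of 7 standard beta genes held 76. The 2 detected activators, PSME3 and PSME4, held 71 clusters, the 4 core assembly chaperones 38, the 2 detected chaperones of the regulatory particle 12, the inhibitor PSMF1 12, and PSMC3IP and PSME3IP1 27. In the 6 SCAF4 and SCAF8 IPs, 21 of the 50 genes held a cluster in every list, and 30 to 41 genes held one in a single list. In the 9 inputs, 10 to 26 genes held a cluster in a single list, and 3 genes held one in every list: PSMB1, PSMC4 and PSMC5.

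The 5 genes with the most clusters in the SCAF4 and SCAF8 IPs were PSME3 (41), PSMC5 (39), PSMD12 (38), PSMD8 (37) and PSMC4 (33). PSME3 encodes a nuclear activator, PSMC4 and PSMC5 are ATPases, and PSMD8 and PSMD12 are non-ATPase subunits of the lid. All 5 also held input clusters, with 19 in PSME3, 15 in PSMC5, 21 in PSMD12, 12 in PSMD8 and 15 in PSMC4 over the 9 inputs. In the 6 SCAF4 and SCAF8 IPs, PSMC4 held 3, 7, 6, 4, 5 and 8 clusters, and in the control IPs 3, 1 and 1. Relative to list length this was 1.29 to 2.73 per 10000 in the SCAF4 and SCAF8 IPs and 3.11 to 6.17 in the control IPs. Replicates 2 and 3 of the control IP rest on 1 cluster each, which alone gives 4.32 and 6.17 per 10000, above any SCAF4 or SCAF8 IP value of PSMC4. PSMC5 was the other ATPase with control IP signal, with 3, 0 and 1 clusters. PSMD6, PSMD8 and PSMD11, all non-ATPase subunits, also held clusters in at least 2 of 3 control IPs. These were 1, 0 and 1 for PSMD6, 3, 2 and 0 for PSMD8 and 1, 1 and 0 for PSMD11. The other 12 genes with control IP clusters held them in 1 list.

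To ask whether single genes were enriched over input, the cluster share of every gene was compared between the 6 SCAF4 and SCAF8 IPs and the 6 inputs of the same lines by an exact two-sided permutation test over all splits of the 12 lists, whose smallest p is 0.00216, with Benjamini-Hochberg adjustment over all 7566 genes with a cluster in at least 3 of the 12 lists. The share was called higher in the IPs for 450 genes, or 5.95% of those tested, and lower for 270, or 3.57%. Of the genes tested, 2135 had no cluster in the 6 inputs and could only be higher in the IPs, and 311 of the 450 were among them. An IP and the input of its extract share a replicate number, and with the labels permuted within replicate numbers no gene was called in place of 720; that test has a smallest p of 0.00926, which 1402 genes would have had to reach for any call. At an unadjusted p under 0.05 it gave 2092 genes and the unblocked test 2119. Of the 40 proteasome genes tested, 1 was called higher (2.50%) and 0 lower. At an unadjusted p under 0.05 of the unblocked permutation test, 6 of the 40 were higher and 3 lower, against 1545 and 574 of all 7566 genes tested. The median difference over the 40 genes was 0.124 per 10000, and 24 were positive. Over all 7566 genes tested, those without input clusters included, the median was 0.215, and 5213 were positive. The 40 genes include 8 with no cluster in the 6 inputs (PSMA1, PSMA2, PSMA3, PSMB7, PSMC3, PSMC3IP, PSMD9 and PSME3IP1), which could enter the test only through the IPs and had to be higher there.

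The gene called was PSME4 (ENSG00000068878, chr2:53864069-53970993, minus strand), which encodes the large activator PA200. It held 3, 11 and 7 clusters in the SCAF4 IPs and 3, 1 and 5 in the SCAF8 IPs. In the 6 inputs of these lines it held 1 cluster, in replicate 1 of SCAF8. The control IPs held 1, 0 and 0 and the control inputs 1, 0 and 0. Per 10000 clusters, the IPs were at 1.58, 2.02 and 2.06 (SCAF4) and 1.19, 0.547 and 1.20 (SCAF8), against 1.09 in 1 input and 0 in the other 5. The IP of replicate 2 of SCAF8 was the only one below that input. The means were 1.43 and 0.182, a difference of 1.25 (exact permutation p = 0.00433, adjusted p = 0.0455). The call was lost under several alternatives. The adjusted p of the exact permutation test was 0.0831 with the labels permuted within replicate numbers, 0.0588 without the filter on the number of lists, 0.0940 for presence of a cluster and 0.145 with the better-scored clusters (at least the median score). Without replicate 1, 2 or 3 it was 0.117, 0.146 and 0.297, where 4 lists against 4 allow no raw p below 0.0286. Over all alternatives run it ranged from 0.0250, with numbers not divided by list length, to 0.297. With undivided numbers all 2897 genes called were higher in the IPs, whose lists are all longer than those of the inputs.

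Of the 5 other genes higher at an unadjusted p under 0.05, PSMC1 and PSMC3 are ATPases, PSMB7 is a catalytic beta subunit, and PSMC3IP and PSME3IP1 are no subunits. PSMC1 (exact permutation test, adjusted p = 0.109) held 2, 9 and 5 clusters in the SCAF4 IPs, 2, 2 and 3 in the SCAF8 IPs and 0, 0, 0, 0, 1 and 1 in the 6 inputs. PSMC3 held 1, 7 and 5 clusters in the SCAF4 IPs and 0, 1 and 1 in the SCAF8 IPs, PSMC3IP 1, 6 and 4 against 0, 2 and 3, and PSMB7 0, 5 and 1 against 1, 1 and 2, all with none in the inputs. PSME3IP1 held 2, 3 and 1 against 1, 0 and 4, with none in the inputs and 1 in a control IP. These 4 genes each had an adjusted p of 0.0714 in the exact permutation test. The 3 genes lower at an unadjusted p under 0.05 were PSMB1, PSMB5 and PSMD4. PSMB5 encodes the beta subunit with chymotrypsin-like activity, PSMB1 a structural beta subunit and PSMD4 a ubiquitin receptor. PSMB5 had the lowest p of them, with 1.05, 1.47 and 1.18 per 10000 in the SCAF4 IPs, 0.794, 0.547 and 0.723 in the SCAF8 IPs, and 3.41, 1.96, 4.17, 1.09, 1.93 and 2.22 in the 6 inputs. The groups overlapped only through the input of replicate 1 of SCAF8, and the adjusted p was 0.0585.

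**Figure D2:**
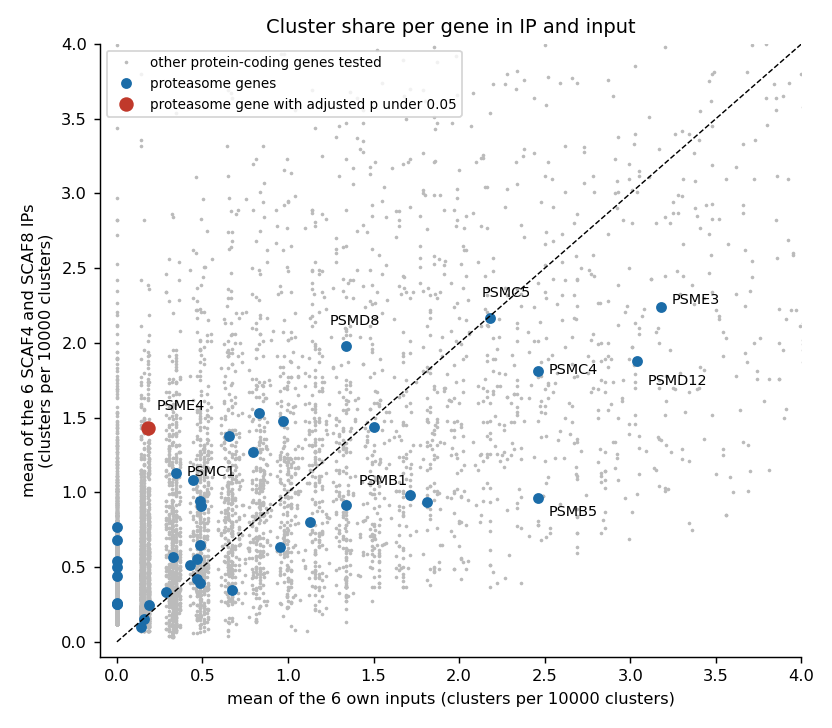
Mean clusters per 10000 clusters in the 6 inputs (x axis) and in the 6 SCAF4 and SCAF8 IPs (y axis) for each gene tested, with the dashed line at equal values. Blue points are the proteasome genes, the red point is PSME4, with 0.182 in the inputs and 1.43 in the IPs, and grey points are the other genes tested, of which 671 lie beyond the axis limit of 4.

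A copy of PSMC1 bears on these values. GENCODE 44 holds 44 pseudogenes of PSM genes by symbol, and 5 of them held 45 clusters in the 18 lists. Of these, 41 lay in 4 processed pseudogenes of PSMC1, more than the 25 in PSMC1 itself. PSMC1P1 alone held 16 clusters in the SCAF4 and SCAF8 IPs, 10 in the inputs and 3 in the control IPs, whereas PSMC1 held 23, 2 and 0. Processed pseudogenes are copies of spliced mRNA, and the aligner the authors used was not splice-aware and gave 1 position per read. How alike PSMC1 and its copies are in sequence was not checked. Exonic reads of PSMC1 may have been placed in its copies, or the reverse. These lists cannot show how many, so the values of PSMC1 are uncertain. Copies of spliced mRNA hold no introns, so this limit does not extend to clusters within introns of PSMC1. Another 40 clusters lay in a second annotated gene on the same strand. Among them were all 14 of PSMA6, of which 11 were in the SCAF4 and SCAF8 IPs and 3 in the inputs. They also included 11 of the 12 clusters of PSMA1, all 5 of PSMA2 and all 5 of PSMD9. The overlapping records of these genes carry no symbol of their own.

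The position of the clusters within the genes was compared next, with each gene represented by its longest coding isoform. In the SCAF4 and SCAF8 IPs, 340 of 713 clusters in proteasome genes covered an exon-intron boundary, that is, at least the last exonic and first intronic base or the reverse. The shares were 46.2%, 50.4% and 52.5% in the SCAF4 IPs and 42.6% to 44% in the SCAF8 IPs. In the inputs they were 25.0%, 15.4% and 23.1% for SCAF4 and 30.4%, 34.9% and 22.6% for SCAF8. Every IP was thus above every input, with means of 46.4% ± 4.15 and 25.2% ± 6.77 (SD, n = 6 each). The control inputs were at 4.17%, 18.2% and 23.1%, and the control IPs at 32%, 20% and 0% of 25, 5 and 3 clusters. Reads across joined exons were not aligned, in IPs and inputs alike. Median cluster lengths were alike, at 129 to 154 nt in the IPs and 130 to 180 nt in the inputs. Among clusters of at most 100 nt the order was not kept, with 30 of 117 in the IPs and 8 of 26 in the inputs, while among longer clusters 310 of 596 and 38 of 145 covered a boundary. Without replicate 1, which had longer reads, the means were 47.4% and 24.0% (n = 4 each).

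The same order was present over all protein-coding genes, with means of 30.3% in the 6 IPs (25.7% to 35.7%) and 14.8% in the 6 inputs (13.8% to 15.8%). The difference between proteasome genes and all genes was not tested. Proteasome genes are shorter, with a median gene length of 16586 nt over all 50, the 9 without a cluster included. The median was 36942 nt for all protein-coding genes with a cluster. The part of gene length in these shares was not tested. In the SCAF4 and SCAF8 IPs, 77.9% ± 7.64 (n = 6) of their clusters had the midpoint in an exon, against 64.6% over all protein-coding genes; in the 6 inputs the means were 88.9% and 62.5%. Coding exons held 48.9% to 67.7% of the clusters in these IPs and 52.1% to 61.5% in the 6 inputs. Introns held 158 of 713 clusters in the IPs and 18 of 171 in the inputs, and the ranges overlapped (6.15% to 27.4% and 0% to 17.4%). Clusters over the 5' splice site were more frequent than those over the 3' splice site in the IPs, at 249 and 176, and 85 clusters covered at least 1 splice site of each kind, against 33, 15 and 2 in the inputs.

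Inputs held more of their clusters at the ends of the genes. In the 6 inputs, 66 of 171 clusters (38.6%) had the midpoint in the last exon, with 32.6% to 53.8% in single lists. In the SCAF4 IPs this share was 27.7%, 15.2% and 18.7%, and in the SCAF8 IPs 31.4%, 26.5% and 24.8%. Again the 6 IPs and the 6 inputs did not overlap, and the IPs were lower. The 3' UTR held 11.7% to 20% of the clusters in the SCAF4 IPs and 22.1% to 25.7% in the SCAF8 IPs, against 25.6% to 46.2% in the inputs. SCAF4 IPs were below SCAF8 IPs in all replicates for the 3' UTR and above them for exon-intron boundaries; with 3 lists a side the smallest exact p is 0.1, and no test was made. Over all protein-coding genes the 3' UTR held 13.5% to 17.8% in the SCAF4 IPs, 17.2% to 21.2% in the SCAF8 IPs and 24.4% to 30.1% in the inputs. For exon-intron boundaries all protein-coding genes had the same order, with 30.0% to 35.7% in the SCAF4 IPs and 25.7% to 29.3% in the SCAF8 IPs.

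**Figure D3:**
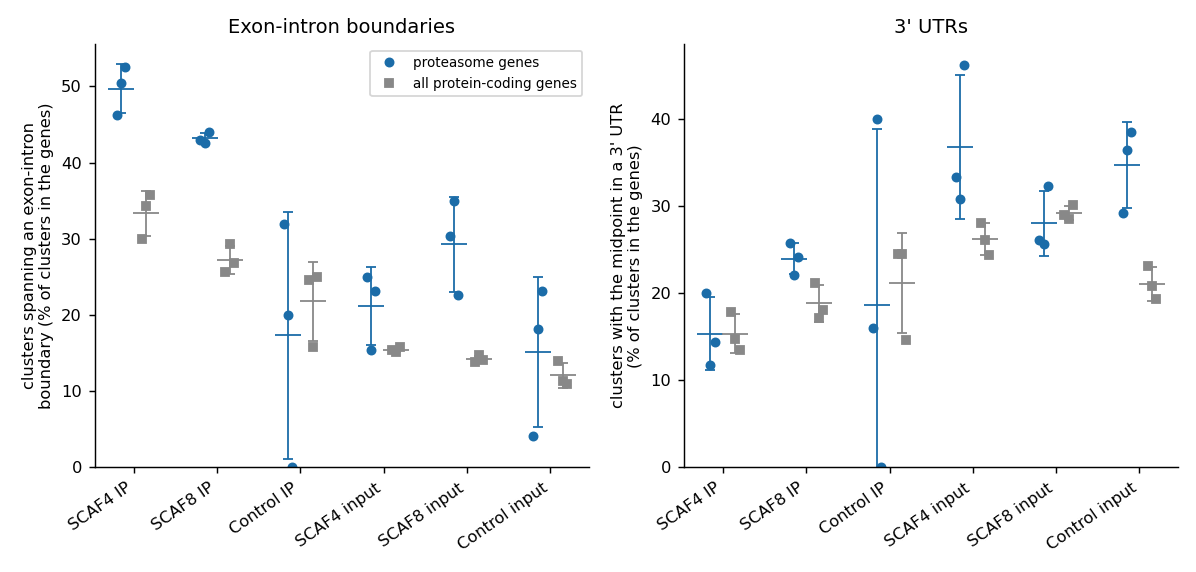
Share of clusters that cover an exon-intron boundary (left, % of the clusters in the genes) and share with the midpoint in a 3' UTR (right, %), in proteasome genes (blue circles) and in all protein-coding genes (grey squares), with 1 point per list and bars for the mean and SD of 3 lists, which end at the axis at 0. For boundaries in proteasome genes the SCAF4 and SCAF8 IPs lie between 42.6% and 52.5%, above their inputs at 15.4% to 34.9%; the control IPs rest on 25, 5 and 3 clusters.

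The study defined binding sites as consensus regions. A rule after that of the study was applied here, in which the unit of overlap (input lists) and of density (merged regions of the 9 inputs) was chosen for this work, since the methods do not say how input density was counted. Clusters on the same strand were merged, regions present in at least 2 of 3 replicates (SCAF4 or SCAF8) or 2 of the 6 lists (pooled) were taken, and regions were removed if they overlapped clusters of more than 1 input, if the gene held at least 1 merged input region per 10 kb, or if they overlapped a control IP cluster. In proteasome genes 128 recurrent SCAF4 regions were reduced to 50, 72 SCAF8 regions to 16 and 161 pooled regions to 60. These numbers depend on single replicates. Without replicate 2 there were 16 SCAF4 and 9 SCAF8 regions, and without replicate 3 there were 18 SCAF4, 6 SCAF8 and 32 pooled regions. The share kept was 39.1%, 22.2% and 37.3%, against 34.4%, 23.8% and 38.0% over all protein-coding genes, where a region was counted once for each gene that holds it. SCAF4 consensus regions lay in 20 of the 41 genes with a cluster (48.8%, against 41.7% of 9830 protein-coding genes with a cluster), SCAF8 consensus regions in 13 (31.7%, against 27.8%) and pooled ones in 22 (53.7%, against 52.6%). The pooled share was thus near that of all genes. All 13 genes with SCAF8 consensus regions also held SCAF4 ones, and 14 of the 16 SCAF8 regions overlapped a SCAF4 consensus region.

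The steps differed in what they removed. After the removal by input overlap 91 SCAF4, 36 SCAF8 and 120 pooled regions were left, after that by input density 51, 17 and 61, and after that by control IP clusters 50, 16 and 60. Left out alone, the density step gave 89, 34 and 118 regions and the overlap step 56, 22 and 67. Of the 41 genes, 17 reached the limit (41.5%, against 23.4% of all protein-coding genes with a cluster), and each of them lost all its recurrent regions. These genes were shorter, with a median length of 12013 nt against 31608 nt for the other 24, and they held 411 of the 713 SCAF4 and SCAF8 IP clusters, 167 of the 219 input clusters and 26 of the 33 control IP clusters. They comprise 8 of 11 non-ATPase genes, 2 of 6 ATPase genes (PSMC4 and PSMC5), 3 of 7 standard beta genes, 2 of 8 alpha genes, PSME3 and PSMG3. Density divides input regions by gene length, so a short gene can reach the limit with few regions. PSMA4, for example, held 1, 3 and 3 clusters in the SCAF4 IPs, 1, 1 and 2 in the SCAF8 IPs and 1 in all inputs, and was excluded at 1.25 regions per 10 kb with the flanks of 2 kb counted. Other genes at the limit held more merged input regions, with 13 in PSMD12 and 8 each in PSMD8 and PSME3. The part of gene length in reaching the limit was not tested. When input clusters were averaged per list, 5 genes reached the limit.

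Some regions removed in this way had no input cluster of their own. In PSMC5, the region chr17:63831310-63831803 around exon 10 held clusters in all 6 SCAF4 and SCAF8 IPs and in 0 inputs and 0 control IPs. In PSMD2, a ubiquitin-binding scaffold of the base, the region chr3:184302357-184302556 over exon 6 did the same. Both were excluded by the density of their gene alone. At the other end, 11 regions held clusters in at least 5 of the 9 inputs, and each of them also held clusters in 5 or 6 of the SCAF4 and SCAF8 IPs. They lay in PSMA7, PSMB1, PSMB5, PSMC4, PSMC5, PSMD4, PSMD7, PSMD8, PSME3 (2 regions) and PSMF1. In PSMC5, a region of 505 nt with the midpoint in intron 5 held clusters in all 9 inputs and 2 control IPs.

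The 60 pooled consensus regions fell on genes of each role but the inducible beta subunits. The ATPases held 15 regions in 4 genes, with 6 in PSMC1, 5 in PSMC3, 3 in PSMC2 and 1 in PSMC6. The non-ATPase subunits held 11 in 3 genes, with 4 in PSMD1, a scaffold of the base, 4 in PSMD14, the deubiquitylase of the lid, and 3 in PSMD6. PSME4 alone held 7, of which 5 were SCAF4 and 1 a SCAF8 consensus region. Alpha genes held 8, with 3 in PSMA1, 3 in PSMA6, and 1 each in PSMA2 and PSMA3, and beta genes 3, with 1 each in PSMB2, PSMB3 and PSMB7. Core assembly chaperones held 6, with 4 in PSMG4, 1 in PSMG1 and 1 in PSMG2. PSMD9, a chaperone of the regulatory particle, held 2, and PSMF1 held 1. PSMC3IP held 4 and PSME3IP1 held 3, so 7 of the 60 regions lay in genes that encode no subunit. The exon bases in the 6 regions of PSMC1 are subject to the limit from its pseudogenes given above. Its regions chr14:90256981-90257128 and chr14:90258032-90258186 lie in intron 1, which a spliced copy does not hold. PSMA1, PSMA2, PSMA6 and PSMD9 overlap a second gene record, as given above.

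**Figure D4:**
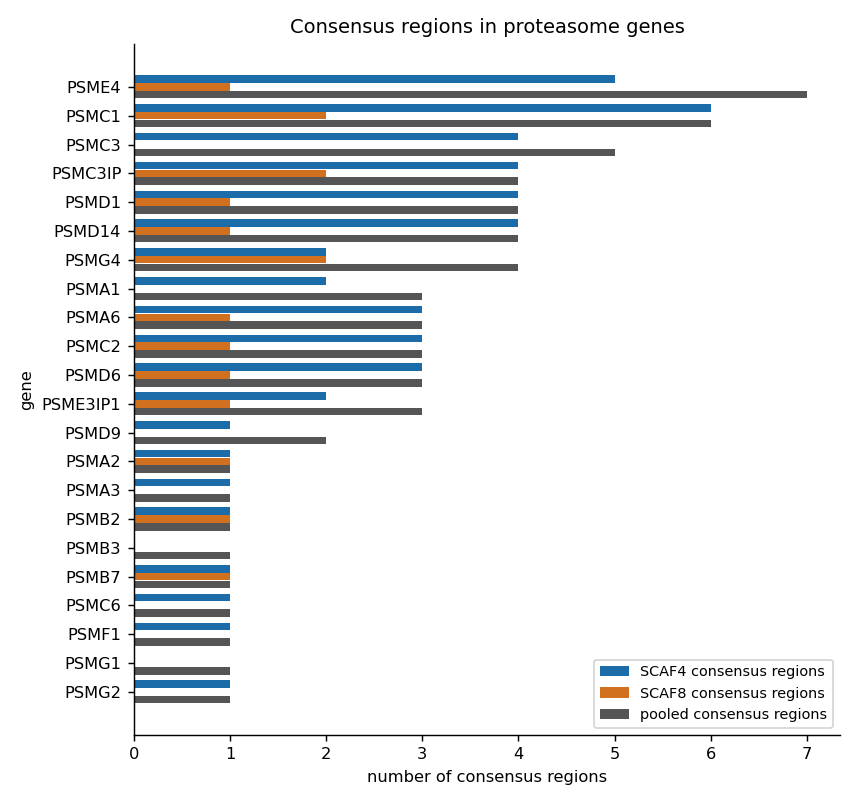
Number of SCAF4 (blue), SCAF8 (orange) and pooled (grey) consensus regions in the 22 proteasome genes with at least 1, ordered by the pooled number. PSME4 leads with 7 pooled regions and PSMC1 follows with 6, and no gene holds more SCAF8 than SCAF4 regions. Numbers are not divided by gene length, which is 106925 nt for PSME4. The 17 genes at or above the input density limit are absent because the rule removes all their regions.

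Relative to the MANE Select isoforms, 40 of the 60 pooled regions had the midpoint in coding sequence, 13 in an intron, 3 in a 5' UTR, 3 in a 3' UTR and 1 downstream of the isoform. An exon-intron boundary lay within 39 of the 60 (65.0%), the 5' splice site in 34 and the 3' splice site in 20. Over all protein-coding genes 44.6% of the 13962 pooled regions in genes with a MANE Select isoform contained a boundary, and the median region lengths were 165 nt and 170 nt. Of the 60, 29 had clusters in only 2 lists and 18 in at least 4.

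Sequences are shown for 6 of the 18 pooled regions with clusters in 4 or more of the 6 IPs. They were taken from the 9 that are at most 300 nt long and contain no UTR base of any protein-coding isoform. They serve as examples of different positions. They are the sense strand of each gene in GRCh38, 5' to 3', written as DNA. Exon bases of the MANE Select isoform are in capitals and intron bases in lower case, so that the change of case marks the splice sites inside a region. The first 2 regions cover all of an exon with intron on both sides, in PSMC1 (exon 10, chr14:90270136-90270361, plus strand, 5 lists) and PSMC3 (exon 6, chr11:47424040-47424235, minus strand, 4 lists).
PSMC1 exon 10: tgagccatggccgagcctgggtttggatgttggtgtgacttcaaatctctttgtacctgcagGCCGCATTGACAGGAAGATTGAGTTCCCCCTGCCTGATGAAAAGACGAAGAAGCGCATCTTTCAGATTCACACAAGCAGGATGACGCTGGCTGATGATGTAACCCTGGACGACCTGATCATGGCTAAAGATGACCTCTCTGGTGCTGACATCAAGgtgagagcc
PSMC3 exon 6: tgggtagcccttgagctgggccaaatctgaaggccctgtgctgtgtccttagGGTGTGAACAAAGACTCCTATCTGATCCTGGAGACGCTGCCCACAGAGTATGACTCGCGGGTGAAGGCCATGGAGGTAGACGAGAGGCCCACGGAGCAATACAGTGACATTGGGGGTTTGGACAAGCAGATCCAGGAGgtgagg

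The next 2 regions of PSME4 cover a 5' splice site, at the end of exon 1 (chr2:53970477-53970734, 5 lists) and of exon 40 (chr2:53887229-53887412, 4 lists). That at exon 1 has 68.2% G and C and holds CGG 11 times, whereas that at exon 40 has 39.1% and no CGG.
PSME4 exon 1: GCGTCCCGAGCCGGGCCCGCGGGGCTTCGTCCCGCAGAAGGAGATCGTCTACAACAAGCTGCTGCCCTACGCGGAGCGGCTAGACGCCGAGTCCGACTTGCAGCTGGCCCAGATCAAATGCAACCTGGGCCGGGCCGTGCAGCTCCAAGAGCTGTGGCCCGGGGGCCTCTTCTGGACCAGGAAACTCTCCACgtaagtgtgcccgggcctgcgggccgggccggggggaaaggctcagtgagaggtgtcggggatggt
PSME4 exon 40: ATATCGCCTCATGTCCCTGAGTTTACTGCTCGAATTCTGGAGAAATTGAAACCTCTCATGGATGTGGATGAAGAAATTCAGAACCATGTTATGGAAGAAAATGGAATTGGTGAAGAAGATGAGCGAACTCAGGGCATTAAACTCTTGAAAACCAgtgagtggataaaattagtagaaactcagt

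The region of PSMD6 covers the 3' splice site of exon 4 (chr3:64018822-64019081, minus strand, 5 lists), with 44 intron bases and 216 exon bases. It has clusters of all 3 SCAF8 and 2 SCAF4 IPs.
PSMD6 exon 4: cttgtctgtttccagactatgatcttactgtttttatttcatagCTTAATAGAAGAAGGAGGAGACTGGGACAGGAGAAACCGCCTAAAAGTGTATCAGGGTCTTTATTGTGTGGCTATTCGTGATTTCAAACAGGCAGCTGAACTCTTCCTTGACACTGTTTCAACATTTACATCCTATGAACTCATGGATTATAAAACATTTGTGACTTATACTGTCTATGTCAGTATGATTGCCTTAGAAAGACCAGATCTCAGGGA

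The last region lies wholly in an intron, the last one of PSMB7 (chr9:124353832-124353927, minus strand, 4 lists), and has no exon base.
PSMB7 intron 7: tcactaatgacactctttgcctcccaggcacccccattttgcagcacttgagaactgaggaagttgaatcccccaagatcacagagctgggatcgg

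**Figure D5:**
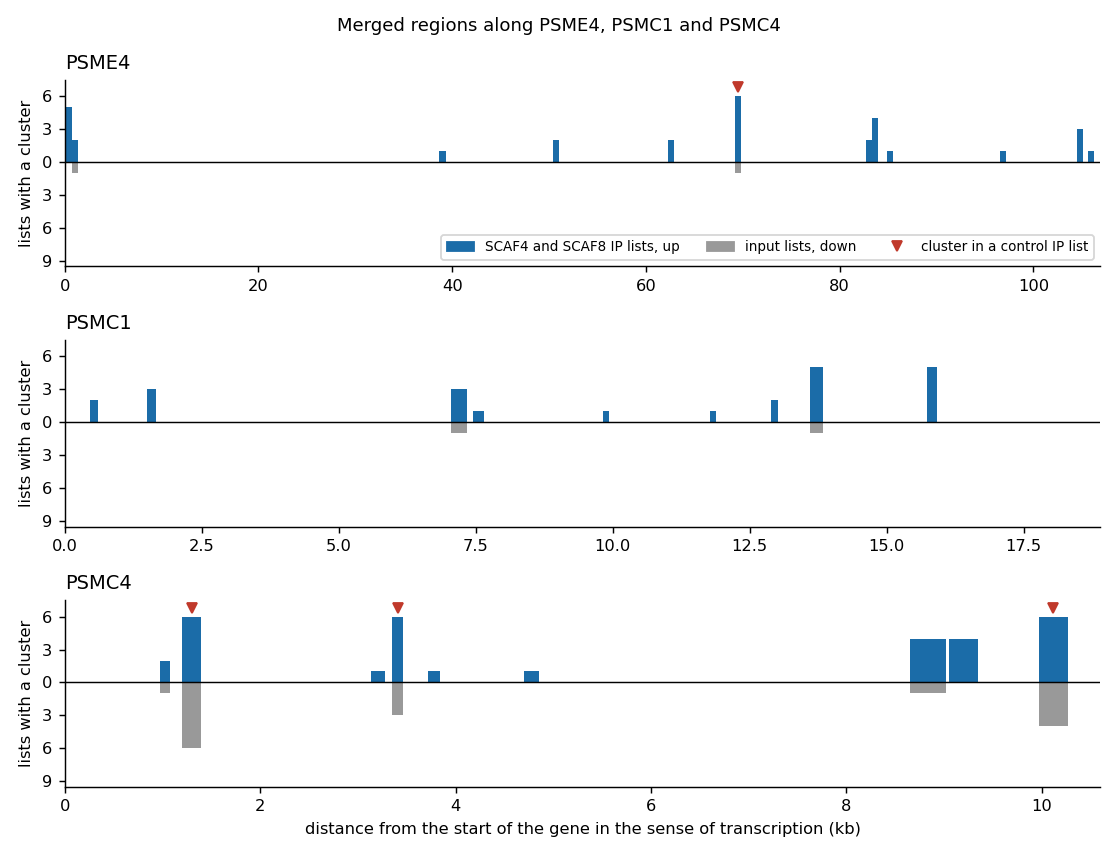
Merged regions along PSME4, PSMC1 and PSMC4, by distance from the start of the gene (kb). Bars upward give the number of SCAF4 and SCAF8 IP lists with a cluster (of 6), bars downward the number of inputs (of 9), and triangles mark a control IP cluster; narrow regions are drawn wider than they are. In PSME4 and PSMC1 no region holds more than 1 input, while in PSMC4 regions with all 6 IPs also hold 3 to 6 inputs.

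The letters were also searched for 4 short motifs, without the opposite strand, in windows of 100 nt centred on each region: the triplet CGG, the triplet CGA, the core CAG with C or G on each side, and the pair CTCC or CACC. CGG was found in 29 of the 60 pooled consensus regions of proteasome genes (48.3%) and in 51.7% of the 14119 distinct regions of all protein-coding genes. CGA was found in 45.0% and 48.6%, the CAG group in 46.7% and 44.2%, and the CTCC or CACC group in 53.3% and 48.3%. In the 101 recurrent regions of proteasome genes that were removed, CGG was found in 61.4%, against 45.6% of the removed regions of all protein-coding genes. These differences were not tested. In the 100 merged input regions of proteasome genes CGG was found in 47.0% and CGA in 37.0%, against 34.8% and 32.3% in the merged input regions of all protein-coding genes. Median G and C content of these windows was 46.5% in the consensus regions of proteasome genes, 51% in their removed regions and 47.0% in their input regions. Over all protein-coding genes it was 49%, 49% and 44% in the same order. The motifs can overlap each other, and a match is only a description of these letters.

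SCAF4 and SCAF8 were compared gene by gene without a test, since 3 lists against 3 cannot give an exact p below 0.1. Of 39 proteasome genes with a cluster in at least 3 of the 6 IPs, 4 had all SCAF4 shares above all SCAF8 shares (10.3%, against 10.4% of 7322 genes) and 2 the reverse (5.13%, against 5.93%). The counts were thus near those of all genes. The 4 were PSMA6, PSMB5, PSME4 and PSMF1, and the 2 were PSMD10 and PSME3. All clusters of PSMA6 also lay in a second gene record. PSME4 was at 1.58 to 2.06 per 10000 in the SCAF4 IPs and at 0.547 to 1.20 in the SCAF8 IPs. PSME3, the other detected activator, was at 1.05 to 1.84 in the SCAF4 IPs and at 1.98 to 4.37 in the SCAF8 IPs. PSME3 also held 4 clusters in each of 2 SCAF8 inputs, at 3.86 and 4.44 per 10000, and was at 6.26 in an input of SCAF4. Since the counts were near those of all genes, these orders are not read as a preference of either activator. Against the control IPs, 9 of 39 proteasome genes had every SCAF4 and SCAF8 IP share above all 3 control values (23.1%, against 14.9% of 7388 genes). These were PSMA4, PSMC1, PSMC2, PSMD2, PSMD7, PSMD12, PSME3, PSMG3 and PSMG4. In a control list with 1621 clusters a single one gives 6.17 per 10000, so this count only says that these genes had none or few there.

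Beside the genes of the symbol rule, 24 other genes of the pathway were listed, among them subunits and chaperones under other names, transcription factors of proteasome genes, shuttle factors and the VCP unfoldase. Clusters in the SCAF4 and SCAF8 IPs were found in 22 of them, PAAF1 and UBQLN2 having none. Of the 20 tested, 2 were called higher in the IPs and 0 lower, where 5.95% and 3.57% of all genes tested were called. At an unadjusted p under 0.05 of the exact permutation test there were 5 of the 20, against 2119 of all 7566 genes tested. With labels permuted within replicate numbers, with presence of a cluster or with the better-scored clusters no gene of the whole table was called. VCP, which extracts ubiquitylated proteins for the proteasome, was at 2.74 per 10000 in the IPs and 0.670 in the inputs (exact permutation test, adjusted p = 0.0278). UBQLN1, a shuttle factor, was at 0.636 and 0 (exact permutation test, adjusted p = 0.0278), but without an input cluster it could enter the test only through the IPs and had to be higher there. NFE2L1, the transcription factor that raises proteasome genes when the protease is inhibited, was at 3.09 and 4.46 (exact permutation test, adjusted p = 0.162). Pooled consensus regions lay in 12 of the 22 genes with a cluster, near the 52.6% of all protein-coding genes with a cluster, with 13 in NPLOC4, a cofactor of VCP, and 11 in ECPAS, an adaptor of the proteasome. VCP had none, because its input density was 3.08 regions per 10 kb.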

How the data were processed

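PAR-CLIP clusters of FLAG IPs and inputs of 3 HEK293-derived lines were analysed as 18 lists from 36 samples. Per the labels and methods, the authors trimmed reads with Trim Galore and cutadapt, aligned them to GRCh38 with Bowtie2 2.2.9, which is not splice-aware, removed duplicates with Picard, combined both fractions and called clusters with PARalyzer. The deposited score (0.501 to 1) is not named and served only to rank clusters. Replicate 1 was sequenced with longer reads than replicates 2 and 3. Read depth is unknown.

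Genes came from GENCODE 44 (GRCh38). Cluster shares were tested by exact permutation of the list labels, with Benjamini-Hochberg adjustment over all genes with a cluster in at least 3 of 12 lists. Consensus regions followed a rule after the study's; since its methods do not say how input density was counted, it was counted here over merged regions of 9 inputs within the gene and 2 kb on each side. Shares over positions used the coding isoform with the most exonic bases. The input was taken from each extract before the IP, so equal replicate numbers were read as pairs, and a test with the number as a block is given beside the unblocked one; deviations of an IP and its input correlated at 0.0325 to 0.330 for equal numbers (6 pairs) and at -0.246 to 0.137 for others (12 pairs). Exon numbers and regions used MANE Select. Genes were named with values if called, if they held a consensus region, if among the 5 with most clusters in the SCAF4 and SCAF8 IPs, or if found in at least 2 control IPs; genes named for an unadjusted p or a single region were chosen after their values were seen. The members and gene lists were chosen with earlier results of these data known. Analyses used Python 3.11.15, numpy 2.4.6, pandas 2.3.3, pysam 0.24.0 and matplotlib 3.10.9. The test was also run on simulated data without replicate pairs, with changes placed only in genes with many clusters. How well it finds changes in genes with fewer clusters, such as the proteasome genes, was not checked. T-to-C counts were not analysed here.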

Additional observations from a re-analysis of the deposited data

How the results depend on the processing

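The number of genes called in the comparison of IPs with inputs, 720, was 722 with any overlap and 590 without the filter on lists. It was 2897, all higher in the IPs with their longer lists, with numbers not divided by list length. It was 0 with presence or absence of a cluster or with the better-scored clusters (at least the median score). It was also 0 with the labels permuted within replicate numbers (the replicate block), where 1402 genes would have had to reach the smallest p of 0.00926 for a single call, and 2092 genes had an unadjusted p under 0.05. Without 1 replicate number it was 0 to 0, since the smallest p is then 0.0286. At an unadjusted p under 0.05 of the exact permutation test there were 1219 genes with presence or absence, 863 with the better-scored clusters and 909 to 1641 without 1 replicate number. PSME4, the 1 proteasome gene called higher, was called with any overlap. Its call with undivided numbers (17 proteasome genes called) does not count as support, since the longer IP lists set the direction there. With presence or absence, the better-scored clusters, no filter, or the block 0 were called higher, and without 1 replicate number 0 to 0. No setting called a proteasome gene lower.

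Consensus regions in proteasome genes, 50 for SCAF4, 16 for SCAF8 and 60 pooled, were 12, 3 and 31 when at least 3 lists were required and 89, 34 and 118 without removal by input density. The better-scored clusters gave 28 for SCAF4. Leaving out 1 replicate number gave 16 to 59 for SCAF4, 6 to 14 for SCAF8 and 32 to 77 pooled; the lowest values came without replicate 2 for SCAF4 and without replicate 3 for the others. Averaging input clusters per list put 5 genes over the density limit in place of 17, and leaving out 1 replicate number 12 to 17. The difference in the share of clusters over an exon-intron boundary, 21.2 percentage points, was -12.2 with clusters of at most 100 nt (117 in the IPs and 26 in the inputs), 30.0 with the better-scored clusters and 30.9 without the genes over the density limit; leaving out 1 replicate number gave 19.1 to 23.4. These alternatives of the boundary share were chosen after seeing the data. Causes were not tested. Read depth is unknown, and few clusters per input limit all comparisons.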
